A study of Homo sapiens with 24 samples.

Results

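Interferon-stimulated genes (ISGs) were followed as a set of 44 members, chosen by gene symbol from the 30373 rows of the gene table and read in 4 human cell lines under 3 treatments. All 44 symbols had a row. The choice of members used no measured value of this table, but it was made with earlier results of the same data known, so it gives the members no independent standing.

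Interferons are secreted when a cell senses foreign nucleic acid. They bind receptors whose Janus kinases phosphorylate STAT proteins, and STAT2 with IRF9 takes part in ISGF3, the complex that binds the interferon-stimulated response element (ISRE) in ISG promoters. Many ISGs encode antiviral proteins that block entry, sense RNA, degrade it or tag proteins with the ubiquitin-like ISG15, and tumour cells, leukaemic cells included, often keep some of them on without added interferon. BET proteins bind acetylated chromatin through a pair of bromodomains and help transcription start and elongate.

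The study asked how BET inhibition acts on transcription in acute myeloid leukaemia (AML) and non-small-cell lung cancer (NSCLC) cells. Cells were treated for 24 h with ABBV-075, an inhibitor of both BET bromodomains, at 100 nM, with ABBV-744, which is selective for the second bromodomain, at 200 nM, or with DMSO, the solvent control. The lines were SKM-1, MV-4-11 and Kasumi-1, 3 AML lines, and NCI-H1299, an NSCLC line; all were grown in RPMI-1640 with serum, and no group received interferon according to the labels. Each of the 12 groups had 2 poly-A-selected RNA-seq libraries, 24 in all, and nothing in the labels says that the 2 came from separate cultures, so a p-value below may measure technical spread alone. The doses of the compounds differ and both were set against the same DMSO libraries, so their values stand side by side here without a test between them.

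The promoters of the members were searched for sequence motifs of interferon signalling. RefSeq windows of 300 bases, from 250 before to 50 after the annotated start (GRCh38.p14), were matched for 34 members. The ISRE core, GAAA followed by any 2 bases and another GAAA, searched on both strands, was found in windows of 23 of these 34 (67.6%), against 1195 of 27305 genes with a window (4.38%). The gamma-activated site TTCNNNGAA, a palindrome bound by STAT dimers, was found for 11 of the 34 members (32.4%) and 2560 of the 27305 genes (9.38%). A match describes the letters in the window and does not show that a factor binds there. Below, 4 promoters with ISRE matches are shown because their genes moved in different ways with ABBV-075, together with STAT2, whose window held no match and whose RNA was higher in all 4 lines. Each run is the 250 bases before the start, written 5′ to 3′ on the gene's strand, with ISRE matches in capitals.
IFI6 (chr1:27672193-27672442, minus strand): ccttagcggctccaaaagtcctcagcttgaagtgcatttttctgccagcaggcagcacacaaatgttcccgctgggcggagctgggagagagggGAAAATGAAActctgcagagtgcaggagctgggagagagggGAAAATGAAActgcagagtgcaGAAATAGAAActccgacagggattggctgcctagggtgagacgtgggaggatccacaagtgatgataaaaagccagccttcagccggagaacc
IFIT1 (chr10:89392373-89392622, plus strand): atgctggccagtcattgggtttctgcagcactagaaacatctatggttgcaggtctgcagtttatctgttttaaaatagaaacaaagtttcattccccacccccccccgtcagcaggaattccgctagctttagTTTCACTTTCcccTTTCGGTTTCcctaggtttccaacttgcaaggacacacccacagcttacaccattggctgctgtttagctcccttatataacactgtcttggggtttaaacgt
OAS3 (chr12:112938224-112938473, plus strand): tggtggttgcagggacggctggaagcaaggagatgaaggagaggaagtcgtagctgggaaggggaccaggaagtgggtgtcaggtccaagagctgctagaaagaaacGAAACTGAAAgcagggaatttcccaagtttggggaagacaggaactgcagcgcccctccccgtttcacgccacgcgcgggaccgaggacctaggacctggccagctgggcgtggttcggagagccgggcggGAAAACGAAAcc
IFITM3 (chr11:320861-321110, minus strand): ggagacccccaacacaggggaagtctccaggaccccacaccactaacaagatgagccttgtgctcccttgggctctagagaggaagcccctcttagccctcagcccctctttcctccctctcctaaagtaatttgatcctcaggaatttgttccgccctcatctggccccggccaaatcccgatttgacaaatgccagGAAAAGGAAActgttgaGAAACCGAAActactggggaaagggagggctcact
STAT2 (chr12:56360108-56360357, minus strand): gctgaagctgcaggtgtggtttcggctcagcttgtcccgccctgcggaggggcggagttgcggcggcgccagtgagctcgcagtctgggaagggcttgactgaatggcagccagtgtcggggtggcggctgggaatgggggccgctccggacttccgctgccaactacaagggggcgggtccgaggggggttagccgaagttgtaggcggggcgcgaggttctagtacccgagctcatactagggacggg

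IFI6 has 3 matches, whose first bases lie at -156, -115 and -93 from the start, and the first and second have the same letters, GAAAATGAAA. In IFIT1 a pair of matches begins at -116 and -103 and reads on the opposite strand. The OAS3 matches begin at -143 and -12, and the IFITM3 matches at -52 and -35.

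ISRE matches occurred among members called higher, lower, in both directions and in none. Among members with a window, the ISRE was present in 3 of the 10 called only higher with ABBV-075 in 1 or more lines (IFI6, IFI44 and HERC5), in 8 of the 10 called only lower, in 5 of the 6 called in both directions and in 7 of the 8 never called, among them IFI44L, which was not tested in any line. The 8 of 10 include DDX60 and ISG20, called lower only where the filter had admitted them through their DMSO libraries alone. The matches of PARP9 (both directions) and DTX3L (only lower) are the same bases in overlapping windows. This match is counted for each gene, here and in the share of members above. These counts were set out after the changes were known and were not tested.

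Levels are FPKM, a fragment count scaled by transcript length and library size, as the authors deposited them. FPKM keeps no read depth, so no counting interval could be given. The summed FPKM per library ranged from 543426 to 719215, 11243 to 12624 genes reached 1 FPKM, and mitochondrially encoded transcripts made up 6.65% to 22.3% of the sum. The highest share belonged to SKM-1 DMSO replicate 2, against 9.13% in replicate 1 of that group, and this pair also differed most across all genes (SD of the log2 difference 0.641, against 0.188 to 0.453 in the other 11 groups). At least 6 of 8 myeloid markers (PTPRC, CD33, SPI1, CD34, MPO, ITGAM, CSF3R and LYZ) averaged 1 FPKM or more in every AML group, while in NCI-H1299 the 8 summed to at most 5.97 FPKM. In NCI-H1299, 5 of 6 lung carcinoma markers (KRT8, KRT18, KRT7, VIM, CAV1 and EGFR) averaged 1 FPKM or more, with list sums of 2174 to 3097 FPKM. The same list was not absent elsewhere: in MV-4-11 it summed to 299 to 384 FPKM, nearly all of it VIM, in SKM-1 to at most 125 FPKM and in Kasumi-1 to at most 2.71 FPKM. SKM-1 DMSO replicate 2 had KRT8 at 1.69 FPKM and KRT18 at 2.71 FPKM, against 0.20 and 0.39 FPKM in replicate 1, and their part in the SKM-1 results was not tested. CD34 was listed at 0 in MV-4-11 with either compound. Lymphoid, fibroblast and erythroid markers summed to at most 1.93, 0.939 and 0.722 FPKM in any library. The summed myeloid markers of SKM-1 were 158 and 141 FPKM under ABBV-075 and 1342 and 1561 FPKM under ABBV-744, against 3928 and 2909 FPKM with DMSO. Such a sum follows its most abundant markers, and not every marker fell. PTPRC had 42.4 and 43.2 FPKM under ABBV-075 but 218 and 201 FPKM under ABBV-744, against 99.5 and 111 FPKM with DMSO. The part of these markers in the ISG results for SKM-1 was not tested.

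The pair of libraries of Kasumi-1 with ABBV-075 differed in these genes by more than in most others. Of the 37 members tested in Kasumi-1, 35 were higher in replicate 1 than in replicate 2, 14 of them by over 1 log2 unit, with a median difference of 0.90 log2 units. Over all genes tested in the line, the median difference of the pair was 0.07 log2 units, and 2.93% of genes differed by over 1 log2 unit. The pair also differed across all genes, with a median absolute difference of 0.346 log2 units, against 0.134 in both other Kasumi-1 groups. Myeloid markers differed in both directions: MPO was at 5655 FPKM in replicate 1 and 3313 FPKM in replicate 2, and SPI1 at 4.21 and 1.70 FPKM. PTPRC went the other way, at 25.6 FPKM in replicate 1 and 31.1 FPKM in replicate 2. The part of these differences in the ISG results was not tested. MX1, a GTPase that traps viral nucleoproteins, was at 8.70 FPKM in replicate 1 and 0.53 FPKM in replicate 2, while both DMSO libraries lay between these values at 1.21 and 1.09 FPKM. ISG15 was at 13.7 FPKM in replicate 1 and 1.95 FPKM in replicate 2 of Kasumi-1 with ABBV-075, and OAS2 at 5.67 and 0.48 FPKM. So 1 library lies above the DMSO level of these genes and the other below it.

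The other lists of the pathway differed within the pair to unequal degrees. Of 13 tested genes of the interferon receptors and JAK-STAT signalling, 6 were higher in replicate 1 and none by over 1 log2 unit, with a median difference of -0.04. Of 12 tested genes of nucleic acid sensing, 9 were higher in replicate 1, none by over 1 log2 unit, with a median of 0.43. Of 29 further ISGs outside the 44 members, 26 were higher in replicate 1, with a median of 0.38 log2 units, and 5 of them (HELZ2, LGALS3BP, LY6E, PML and SHISA5) by over 1 log2 unit. In none of the other 11 groups did over 2 members differ by more than 1 log2 unit between the libraries. Called Kasumi-1 changes with ABBV-075 that lose their call or move by over 1.5 times without 1 of the pair are given below with the value without that library. The cause of the difference was not tested.

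**Figure D1:**
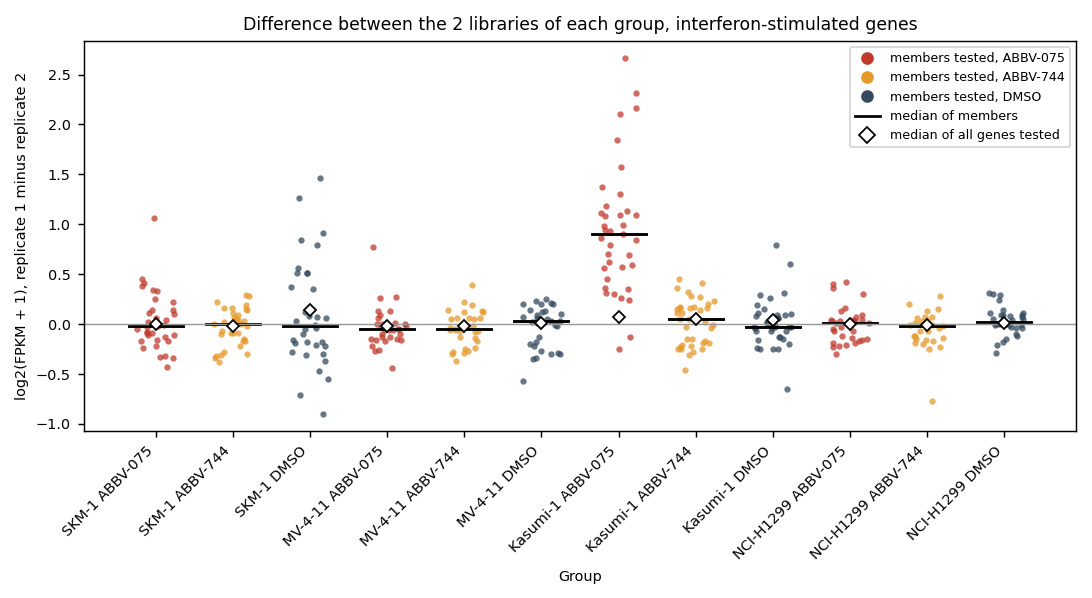
Each point is 1 ISG of the 44 that was tested in that line, and the y axis is its log2(FPKM + 1) in replicate 1 minus that in replicate 2, for the 12 groups; black bars are medians of the members and diamonds medians of all genes tested. In Kasumi-1 with ABBV-075 the members' median lies at 0.90 against 0.07 for all genes, while the medians of the other groups lie near 0.

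A gene was tested in a line when at least 2 of its 6 libraries reached 1 FPKM. In SKM-1 34 of the 44 members passed, in MV-4-11 32, in Kasumi-1 37 and in NCI-H1299 31; of these, 3, 2, 0 and 3 passed through 1 group only. A gene admitted by the 1 group where it is high had to differ from the others, so the calls of DDX60 and OAS3 in SKM-1, IFIH1 in MV-4-11, and DDX60, IFIT2 and ISG20 in NCI-H1299 (admitted by DMSO), and of IFIT2 in SKM-1 (admitted by ABBV-744), are descriptions only. OAS1 in MV-4-11 needed its ABBV-075 libraries to pass, as ABBV-744 replicate 1 and both DMSO libraries stayed below 1 FPKM. Its call there is also a description only. The 22 members that passed in all 4 lines included all 6 transcription factors. IFI44L, a homologue of IFI44, passed in no line and stayed at or below 0.29 FPKM, and IFI27, IFI44 and OASL passed in 1 line each.

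Without any inhibitor, the 4 lines kept different parts of the ISG set on. The members' median level with DMSO was 3.27 FPKM in SKM-1, 2.33 FPKM in MV-4-11, 3.51 FPKM in Kasumi-1 and 3.43 FPKM in NCI-H1299, over all 44 members. The leading genes were IFITM2 (127 FPKM in SKM-1 and 355 FPKM in MV-4-11) and IFITM3 (185 FPKM in Kasumi-1 and 138 FPKM in NCI-H1299), membrane proteins that hinder viral fusion. At an adjusted p under 0.05, the DMSO level differed among lines for 41 of 42 members tested across lines, where 90.5% of all genes passed the same test, so a difference between lines is the rule in this table. The exception was PARP14, a mono-ADP-ribosyltransferase (adjusted p = 0.256).

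Some members were nearly silent in 1 line and plain in the next. XAF1, a pro-apoptotic ISG, had 37.4 and 32.3 FPKM in MV-4-11 DMSO libraries, 1.61 and 1.73 FPKM in Kasumi-1, and no more than 0.44 FPKM in SKM-1 and NCI-H1299. BST2 (tetherin), which holds budding virions at the cell surface, had 172 and 211 FPKM in MV-4-11, 68.5 and 70.1 FPKM in Kasumi-1, 28.6 and 35.6 FPKM in SKM-1 and 0.09 and 0.31 FPKM in NCI-H1299. IFIT1, which binds RNA lacking cap methylation, had 6.53 and 7.89 FPKM in Kasumi-1, 2.74 and 2.74 FPKM in NCI-H1299, 0.60 and 0.59 FPKM in SKM-1 and 0.07 and 0.03 FPKM in MV-4-11. For each of these genes the DMSO libraries of the lines named first and last did not overlap.

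**Figure D2:**
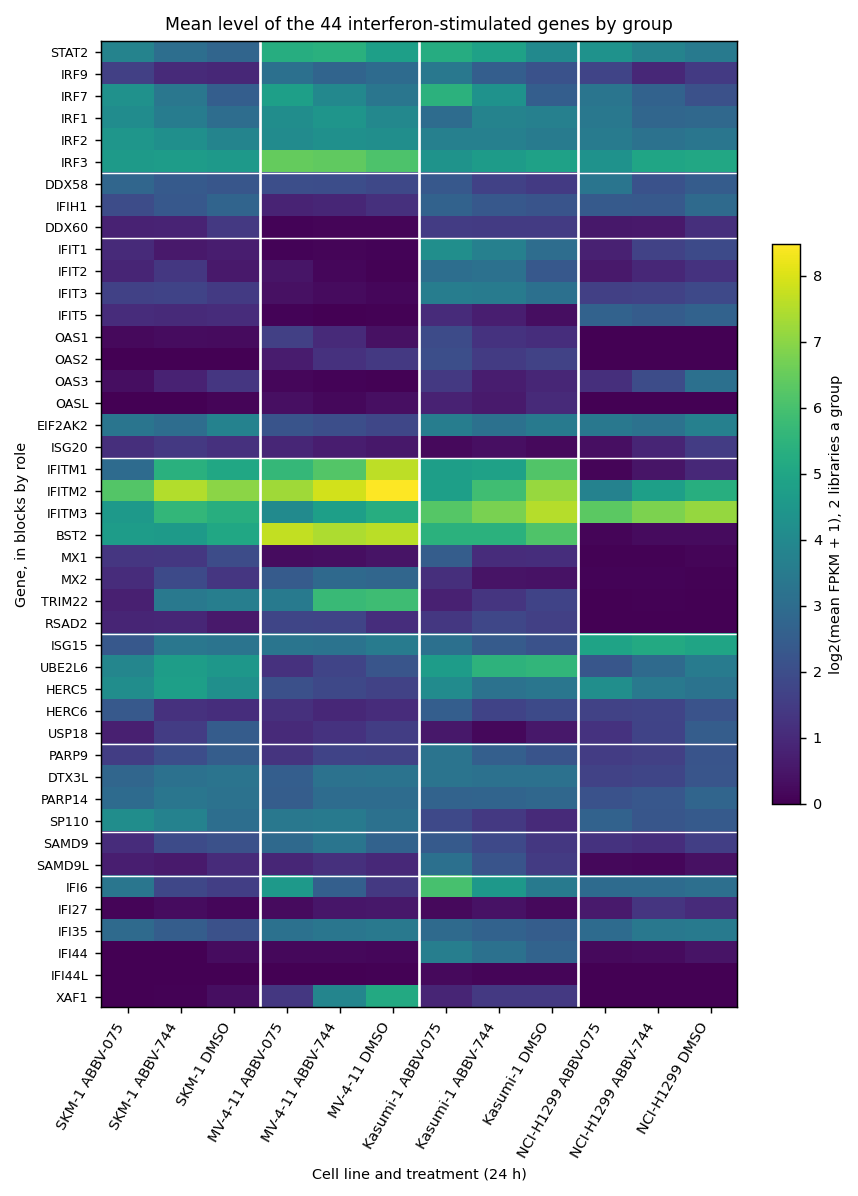
The colour is log2(mean FPKM + 1) over the 2 libraries of each group, for the 44 members in rows, in blocks by role, and the 12 groups in columns. IFITM2 and IFITM3 are bright in every line, and BST2, IFITM1, TRIM22 and XAF1 are dark in NCI-H1299, where each stays at or below 1.43 FPKM.

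With ABBV-075 the members did not move as a block. In SKM-1, 10 of 34 tested members were called higher and 12 lower (adjusted p under 0.05), where 32% and 29.2% of all genes tested were called higher and lower. In MV-4-11 the members called were 6 higher and 8 lower of 32, beside 20.3% and 22.1% of all genes. Kasumi-1 had 15 higher and 9 lower of 37, beside 24.7% and 32.6% of all genes. NCI-H1299 had 5 higher and 14 lower of 31, beside 20.6% and 26.5% of all genes. Counted in either direction, the share of members called was 64.7%, 43.8%, 64.9% and 61.3% in SKM-1, MV-4-11, Kasumi-1 and NCI-H1299, against 61.3%, 42.4%, 57.3% and 47.1% of all genes. The share of members was thus close to that of all genes in the AML lines. In NCI-H1299 it stood above, but it includes DDX60, IFIT2 and ISG20, whose calls there are descriptions only. That excess is therefore not read as a result about the members. The shares of SKM-1 and MV-4-11 also include calls that are descriptions only.

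The members' median log2 change with ABBV-075 was -0.25 in SKM-1, -0.08 in MV-4-11, 0.44 in Kasumi-1 and -0.51 in NCI-H1299; the medians over all genes tested were 0.05, -0.01, -0.09 and -0.06. In Kasumi-1 the balance depends on which library of the ABBV-075 pair is left out, as 35 of the 37 members tested were higher in replicate 1 than in replicate 2. All changes are on the log2(FPKM + 1) scale, compound minus DMSO, which understates the change of genes near 1 FPKM. A bulk library cannot tell fewer expressing cells from less RNA per cell, and this holds for every change given here.

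With ABBV-744 fewer members were called. In SKM-1 there were 5 higher and 4 lower of 34 (all genes 14.9% and 12.5%), in MV-4-11 5 higher and 1 lower of 32 (4.61% and 6.75%), in Kasumi-1 7 higher and 2 lower of 37 (8.69% and 15.0%), and in NCI-H1299 no member higher and 3 lower of 31 (1.40% and 3.95%). In either direction, 26.5%, 18.8%, 24.3% and 9.68% of the members tested in SKM-1, MV-4-11, Kasumi-1 and NCI-H1299 were called, against 27.4%, 11.4%, 23.6% and 5.35% of all genes. The members' medians were 0.16, 0.02, 0.13 and -0.32 in SKM-1, MV-4-11, Kasumi-1 and NCI-H1299, beside 0.05, 0.02, -0.04 and -0.03 over all genes.

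**Figure D3:**
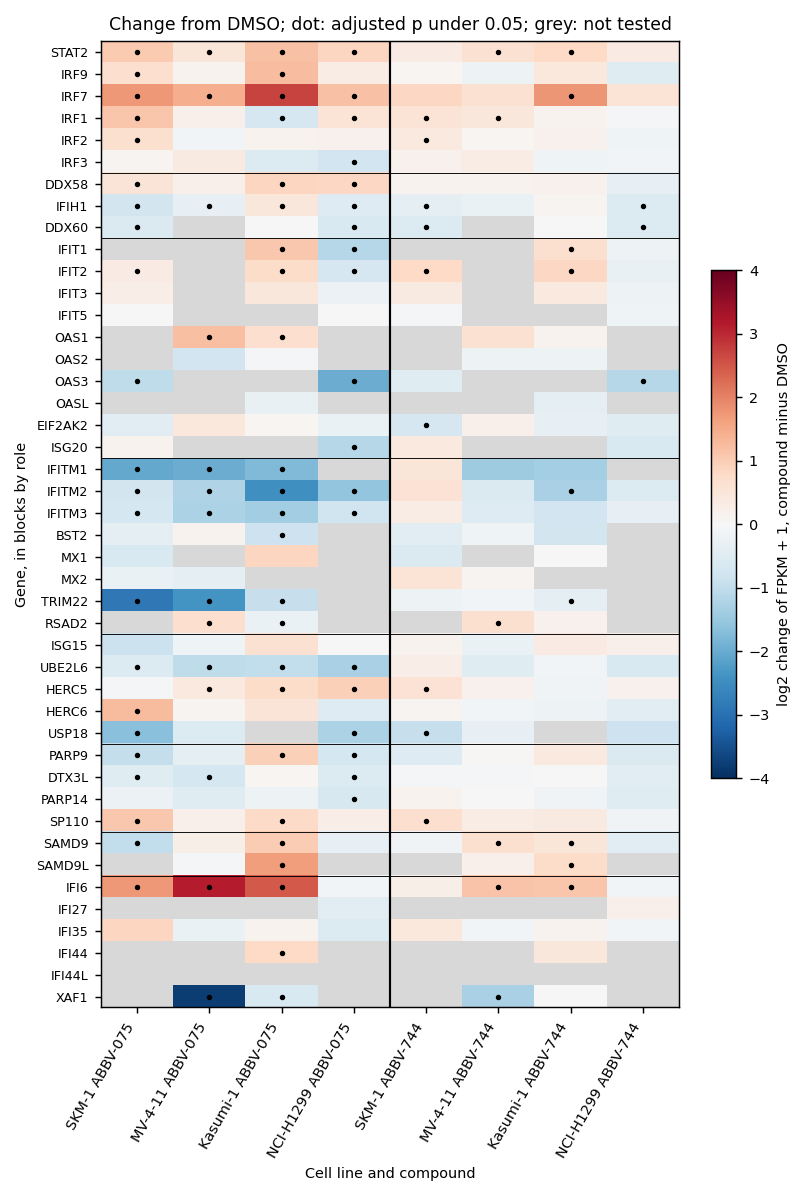
Colour gives the log2 change of FPKM + 1, compound minus DMSO, for the 44 members (rows, in blocks by role) in the 4 lines with ABBV-075 (left) and ABBV-744 (right); a dot marks an adjusted p under 0.05 and grey a gene not tested in that line. STAT2 and IRF7 are red and IFITM2, IFITM3 and UBE2L6 blue with a dot in all 4 lines with ABBV-075, and IFI6 and XAF1 in MV-4-11 hold the largest changes at 3.15 and -3.79.

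Taken over the 4 lines, 12 members were called only higher with ABBV-075, 14 only lower, 7 higher in 1 line and lower in another (IRF1, IFIH1, IFIT1, IFIT2, RSAD2, PARP9 and SAMD9), 10 were tested and never called, and IFI44L was never tested. DDX60, ISG20 and IFIT2 were called lower only where the filter had admitted them through their DMSO libraries alone. STAT2 and IRF7 were called higher in all 4 lines, and IFITM2, IFITM3 and UBE2L6 lower in all 4. Of the 10180 genes tested in every line, 7.97% were called higher in all 4 and 7.75% lower in all 4, and these shares are the background for the 2 and 3 of 22 members.

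Of the transcription factors of the pathway, 5 of 6 in SKM-1 were called higher with ABBV-075 and none lower. The other lines had 2 higher in MV-4-11, 3 higher and 1 lower in Kasumi-1, and 3 higher and 1 lower in NCI-H1299. Their median log2 change was 0.86, 0.28, 0.65 and 0.41 in SKM-1, MV-4-11, Kasumi-1 and NCI-H1299. The share called in either direction was 83.3%, 33.3%, 66.7% and 66.7%, against 61.3%, 42.4%, 57.3% and 47.1% of all genes, so with 6 genes it stood below the background in MV-4-11 and near it in Kasumi-1.

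STAT2, the ISGF3 subunit that carries its activation domain, was at 13.1 and 12.5 FPKM in SKM-1 with ABBV-075 and 7.43 and 7.38 FPKM with ABBV-744, against 5.34 and 6.17 FPKM with DMSO. In MV-4-11 STAT2 had 35.5 and 39.8 FPKM under ABBV-075 and 37.1 and 44.1 FPKM under ABBV-744, against 27.2 and 25.5 FPKM with DMSO. Kasumi-1 had 43.9 and 29.4 FPKM under ABBV-075 and 29.2 and 26.0 FPKM under ABBV-744, against 15.6 and 15.3 FPKM with DMSO. In every line, including NCI-H1299 at 18.6 and 19.3 FPKM under ABBV-075, 11.8 and 13.6 FPKM under ABBV-744 and 9.86 and 10.1 FPKM with DMSO, all STAT2 libraries of either compound lay above both DMSO libraries. The log2 change of STAT2 with ABBV-075 was 1.04 ± 0.15 in SKM-1, 0.49 ± 0.15 in MV-4-11, 1.17 ± 0.15 in Kasumi-1 and 0.87 ± 0.15 in NCI-H1299 (SE; adjusted p = 2.11e-05, 0.0142, 7.38e-06 and 2.07e-04). The MV-4-11 call did not hold without ABBV-075 replicate 2 (0.41, adjusted p = 0.110) or DMSO replicate 2 (0.45, adjusted p = 0.0846). With ABBV-744 the change of STAT2 passed the test in MV-4-11 (0.60 ± 0.15, adjusted p = 0.0158) and Kasumi-1 (0.80 ± 0.15, adjusted p = 0.00122), and was 0.32 in both SKM-1 and NCI-H1299 without passing. The MV-4-11 call with ABBV-744 was lost without 1 of 3 libraries, at the lowest to 0.48 (adjusted p = 0.174, without ABBV-744 replicate 2).

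IRF7, the factor that amplifies interferon production and is itself an ISG, showed the largest rise among the factors. In Kasumi-1 it stood at 64.1 and 20.9 FPKM under ABBV-075 and 17.7 and 20.2 FPKM under ABBV-744, against 5.38 and 4.31 FPKM with DMSO. In MV-4-11 it had 26.1 and 27.1 FPKM under ABBV-075 and 13 and 15.8 FPKM under ABBV-744, against 8.43 and 9.83 FPKM with DMSO. All compound libraries of IRF7 lay above the DMSO libraries of their line. IRF7 changed with ABBV-075 by 1.73 ± 0.33 in SKM-1, 1.45 ± 0.33 in MV-4-11, 2.70 ± 0.33 in Kasumi-1 and 1.18 ± 0.33 in NCI-H1299 (log2, SE; adjusted p = 2.76e-04, 0.00204, 4.19e-06 and 0.00763). Without replicate 1 of Kasumi-1 with ABBV-075, IRF7 was still called at 1.91 (adjusted p = 1.83e-06), and in NCI-H1299 the call was lost without DMSO replicate 2 (1.06, adjusted p = 0.0583) or ABBV-075 replicate 2 (1.11, adjusted p = 0.05037). ABBV-744 gave a call in Kasumi-1 only, at 1.78 ± 0.33 (adjusted p = 0.00106), with 0.83 in SKM-1, 0.60 in MV-4-11 and 0.54 in NCI-H1299 not passing.

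IRF9, the DNA-binding subunit of ISGF3, was lower in level. It had 11.9 and 6.93 FPKM in Kasumi-1 with ABBV-075 and 5.60 and 3.97 FPKM with ABBV-744, against 2.45 and 4.39 FPKM with DMSO, a change of 1.23 ± 0.26 with ABBV-075 (log2, SE; adjusted p = 7.83e-04) that was 0.88 without replicate 1 (adjusted p = 0.0150). In SKM-1 IRF9 had 2.19 and 1.89 FPKM with ABBV-075, against 0.57 and 1.30 FPKM with DMSO (0.68 ± 0.26, adjusted p = 0.0328), a call lost without DMSO replicate 1 (0.40, adjusted p = 0.252), ABBV-075 replicate 1 (0.60, adjusted p = 0.134) or ABBV-075 replicate 2 (0.75, adjusted p = 0.0664). In MV-4-11 and NCI-H1299 its changes of 0.14 and 0.29 did not pass.

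IRF1, a factor induced by interferon-gamma, changed in both directions. It had 17.6 and 15.0 FPKM in SKM-1 with ABBV-075, against 7.31 and 6.85 FPKM with DMSO (log2 change 1.10 ± 0.12 SE, adjusted p = 8.91e-07), and it rose in NCI-H1299 by 0.53 ± 0.12 (adjusted p = 0.00156). In Kasumi-1 it had 7.89 and 6.23 FPKM with ABBV-075, against 12.6 and 10.9 FPKM with DMSO (-0.67 ± 0.12, adjusted p = 1.64e-04). With ABBV-744 IRF1 rose by 0.56 in SKM-1 (adjusted p = 0.00254) and 0.45 in MV-4-11 (adjusted p = 0.0207); the MV-4-11 call was lost without any 1 of its 4 libraries, for example at 0.43 without DMSO replicate 2 (adjusted p = 0.124). IRF2, an ISRE-binding factor often acting as a repressor, was called in SKM-1 only (0.63 ± 0.11 with ABBV-075, adjusted p = 1.97e-04). IRF3, the constitutive factor activated by sensing, fell in NCI-H1299 (-0.76 ± 0.27, adjusted p = 0.0282), a call lost without ABBV-075 replicate 2 (-0.55, adjusted p = 0.209), DMSO replicate 1 (-0.71, adjusted p = 0.122) or DMSO replicate 2 (-0.82, adjusted p = 0.0744); it overlaps BCL2L12 in the annotation.

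The RNA sensors had 1 higher and 2 lower of 3 in SKM-1, 1 lower of 2 in MV-4-11, 2 higher of 3 in Kasumi-1, and 1 higher and 2 lower of 3 in NCI-H1299 with ABBV-075, too few genes for a share to be read against the background. DDX58 (RIG-I), which detects RNA with a free triphosphate end, rose with ABBV-075 in SKM-1 (0.52 ± 0.16, adjusted p = 0.0104), Kasumi-1 (0.87 ± 0.16, adjusted p = 2.36e-04; 0.57 without replicate 1, adjusted p = 0.00340) and NCI-H1299 (0.82 ± 0.16, adjusted p = 5.80e-04). In NCI-H1299 it had 8.24 and 9.27 FPKM under ABBV-075 and 3.15 and 3.64 FPKM under ABBV-744, against 4.46 and 4.61 FPKM with DMSO, so its ABBV-744 libraries lay below the DMSO ones and its ABBV-075 libraries above. The SKM-1 call was lost without DMSO replicate 2 (0.34, adjusted p = 0.113) or ABBV-075 replicate 2 (0.43, adjusted p = 0.0791). IFIH1 (MDA5), the sensor of long double-stranded RNA, fell with ABBV-075 in SKM-1 (-0.74 ± 0.13, adjusted p = 1.67e-04), MV-4-11 (-0.34 ± 0.13, adjusted p = 0.0484) and NCI-H1299 (-0.53 ± 0.13, adjusted p = 0.00396). IFIH1 passed the filter in MV-4-11 through its DMSO libraries alone. The MV-4-11 value was lost with 16 of the libraries left out in turn, and was -0.34 without ABBV-075 replicate 2 (adjusted p = 0.144). In Kasumi-1 IFIH1 was higher by 0.44 ± 0.13 (adjusted p = 0.0101), a call lost without replicate 1 (0.26, adjusted p = 0.129). DDX60, a helicase that aids RIG-I signalling, fell by 0.59 in SKM-1 and 0.60 in NCI-H1299 with ABBV-075 (adjusted p = 7.99e-04 and 0.00119) and by 0.54 and 0.55 with ABBV-744 (adjusted p = 0.00512 and 0.0158), but in both lines it passed the filter through its DMSO libraries alone. The NCI-H1299 call with ABBV-744 was lost without ABBV-744 replicate 1 (-0.48, adjusted p = 0.168).

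The effectors that act on RNA had 1 member higher and 1 lower of 6 tested in SKM-1, 1 higher of 3 in MV-4-11, 3 higher of 7 in Kasumi-1 and 4 lower of 7 in NCI-H1299 with ABBV-075. The shares called were 33.3%, 33.3%, 42.9% and 57.1%, beside 61.3%, 42.4%, 57.3% and 47.1% of all genes. The Kasumi-1 share stood below its background with 7 genes tested. It includes OAS1, whose change was -0.01 without ABBV-075 replicate 1. In MV-4-11, 3 genes are too few for a share to be read, and the call there is OAS1. The SKM-1 calls (IFIT2 and OAS3) and the NCI-H1299 calls of IFIT2 and ISG20 passed the filter through 1 group alone. The shares of SKM-1 and NCI-H1299 are therefore not read against the background. IFIT1 and IFIT2, which bind viral RNA, were called higher in Kasumi-1 and lower in NCI-H1299, while IFIT3 and IFIT5 were called in no line. With ABBV-075, IFIT1 had 22.8 and 11.5 FPKM in Kasumi-1, where ABBV-744 gave 11.7 and 11.9 FPKM, against 6.53 and 7.89 FPKM with DMSO. In NCI-H1299 IFIT1 had 0.91 and 0.49 FPKM under ABBV-075 and 2.39 and 2.05 FPKM under ABBV-744, against 2.74 and 2.74 FPKM with DMSO. Compound and DMSO libraries overlapped in neither line, while those of ABBV-075 and ABBV-744 overlapped in Kasumi-1. IFIT1 rose in Kasumi-1 with ABBV-075 by 1.07 ± 0.20 (adjusted p = 3.11e-04; 0.61 without replicate 1, adjusted p = 0.00166) and fell in NCI-H1299 by 1.15 on the log2 scale (SE 0.20, adjusted p = 2.40e-04).

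IFIT2 was called in the same directions. It rose in Kasumi-1 by 0.73 ± 0.10 and in SKM-1 by 0.33 ± 0.10 with ABBV-075 (log2, SE; adjusted p = 1.80e-05 and 0.0119), and fell in NCI-H1299 (-0.67 ± 0.10, adjusted p = 6.89e-05), where it passed the filter through its DMSO libraries alone. With ABBV-744 IFIT2 rose by 0.80 in SKM-1 and 0.83 in Kasumi-1 (adjusted p = 4.07e-05 and 3.94e-05). IFIT2 in SKM-1 had 0.83 and 0.88 FPKM under ABBV-075 and 1.6 and 1.56 FPKM under ABBV-744, against 0.51 and 0.45 FPKM with DMSO, so it passed the filter there through the ABBV-744 libraries alone, the group where it is high. The SKM-1 call with ABBV-075 was lost without ABBV-075 replicate 2 (0.30, adjusted p = 0.0612). IFIT3, which stabilises IFIT1, had 13.8 and 8.59 FPKM in Kasumi-1 with ABBV-075 and 11.7 and 9.16 FPKM with ABBV-744, against 7.99 and 7.42 FPKM with DMSO, and passed the test in no line. The 4 IFIT genes overlap LIPA by the start and end positions of the genes in RefSeq. Overlap of exons was not checked and the strand setting of the counting is not given, so how many reads these loci share is unknown.

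The oligoadenylate synthetases, which switch on RNase L, were low in level. OAS3 in NCI-H1299 had 1.2 and 1.18 FPKM under ABBV-075 and 2.80 and 3.0 FPKM under ABBV-744, against 7.82 and 7.53 FPKM with DMSO. Its log2 change there was -1.99 ± 0.28 with ABBV-075 (adjusted p = 2.85e-05) and -1.15 ± 0.28 with ABBV-744 (adjusted p = 0.0212); the ABBV-744 call was lost without any 1 of the 4 libraries behind it, for example at -1.13 without DMSO replicate 1 (adjusted p = 0.145). OAS3 also fell in SKM-1 with ABBV-075 (-1.0 ± 0.28, adjusted p = 0.00552), where it passed the filter through its DMSO libraries alone. OAS1 in MV-4-11 had 2.16 and 1.89 FPKM under ABBV-075 and 0.83 and 1.22 FPKM under ABBV-744, against 0.31 and 0.31 FPKM with DMSO (1.21 ± 0.27 with ABBV-075, adjusted p = 0.00219). Without the ABBV-075 libraries OAS1 would not have passed the filter in MV-4-11, so this call is a description only. In Kasumi-1 OAS1 had 4.49 and 1.11 FPKM with ABBV-075, against 1.11 and 1.16 FPKM with DMSO; the groups overlapped, and the change of 0.68 (adjusted p = 0.0456) was -0.01 without replicate 1 (adjusted p = 0.942) and 1.36 without replicate 2 (adjusted p = 2.86e-06). ISG20, an exonuclease, fell in NCI-H1299 with ABBV-075 (-1.15 ± 0.30, adjusted p = 0.00540), again admitted by its DMSO libraries alone. EIF2AK2 (PKR), the kinase that halts translation on double-stranded RNA, passed only in SKM-1 with ABBV-744 (-0.68 ± 0.23, adjusted p = 0.0384), and was -0.32 there without DMSO replicate 2 (adjusted p = 0.367).

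Of 7 membrane and virion restriction factors tested in each AML line, 4 were called lower in SKM-1, 4 lower and 1 higher in MV-4-11, and 6 lower in Kasumi-1 with ABBV-075, and both tested in NCI-H1299 were called lower. The median log2 changes of these members were -0.71, -1.19, -0.93 and -1.19, beside 0.05, -0.01, -0.09 and -0.06 over all genes, of which 29.2%, 22.1%, 32.6% and 26.5% were called lower in SKM-1, MV-4-11, Kasumi-1 and NCI-H1299. In either direction, 57.1%, 71.4% and 85.7% of these members were called in SKM-1, MV-4-11 and Kasumi-1, against 61.3%, 42.4% and 57.3% of all genes, so the SKM-1 share is near the background. The Kasumi-1 share includes IFITM1, BST2 and RSAD2, whose changes shrank without ABBV-075 replicate 2, as given below. The IFITM genes may also share reads.

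IFITM2 had 83.0 and 63.5 FPKM in SKM-1 with ABBV-075 and 167 and 195 FPKM with ABBV-744, against 166 and 87.4 FPKM with DMSO. In Kasumi-1 it had 34.9 and 18.2 FPKM under ABBV-075 and 51.7 and 62.8 FPKM under ABBV-744, against 136 and 149 FPKM with DMSO. NCI-H1299 had 14.4 and 10.7 FPKM under ABBV-075 and 26.6 and 25.9 FPKM under ABBV-744, against 39.1 and 39.3 FPKM with DMSO. In Kasumi-1 and NCI-H1299 the ABBV-744 libraries of IFITM2 therefore lay between those of ABBV-075 and DMSO, and in SKM-1 they lay above both DMSO libraries. The log2 change with ABBV-075 was -0.72 ± 0.28 in SKM-1, -1.19 ± 0.28 in MV-4-11, -2.45 ± 0.28 in Kasumi-1 and -1.58 ± 0.28 in NCI-H1299 (SE; adjusted p = 0.0346, 0.00278, 2.25e-06 and 2.43e-04). The SKM-1 call was lost without DMSO replicate 1 (-0.26, adjusted p = 0.416) or ABBV-075 replicate 2 (-0.53, adjusted p = 0.206).

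IFITM3 fell with ABBV-075 by 0.71 in SKM-1, 1.27 in MV-4-11, 1.39 in Kasumi-1 and 0.79 in NCI-H1299 (log2, SE 0.28 each; adjusted p = 0.0354, 0.00158, 4.95e-04 and 0.0288). In MV-4-11 it had 20.1 and 11.3 FPKM under ABBV-075 and 25.7 and 27.3 FPKM under ABBV-744, against 33.5 and 43.1 FPKM with DMSO. In NCI-H1299 it had 80.6 and 79.0 FPKM under ABBV-075 and 110 and 111 FPKM under ABBV-744, against 138 and 139 FPKM with DMSO; the groups did not overlap in either line. The calls in SKM-1 and NCI-H1299 were each lost when any 1 of the 4 libraries behind them was left out, for example at -0.64 in SKM-1 (adjusted p = 0.135) and -0.77 in NCI-H1299 (adjusted p = 0.103) without ABBV-075 replicate 2. In Kasumi-1 IFITM3 changed by -1.95 without ABBV-075 replicate 1 and by -0.83 without replicate 2 (adjusted p = 7.71e-06 and 0.00970).

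IFITM1, the family member found mainly at the cell surface, had 46.8 and 52.0 FPKM in MV-4-11 with ABBV-075 and 69.1 and 76.4 FPKM with ABBV-744, against 179 and 216 FPKM with DMSO. Its log2 change with ABBV-075 was -2.03 ± 0.55 in SKM-1, -1.97 ± 0.55 in MV-4-11 and -1.78 ± 0.55 in Kasumi-1 (SE; adjusted p = 0.00479, 0.00915 and 0.0119), and it was not tested in NCI-H1299, where no library passed 1.43 FPKM. In SKM-1 the call was lost without DMSO replicate 1 (-1.41, adjusted p = 0.0657) or ABBV-075 replicate 2 (-1.5, adjusted p = 0.0645), in MV-4-11 without DMSO replicate 2 (-1.83, adjusted p = 0.0575) or ABBV-075 replicate 1 (-1.90, adjusted p = 0.0508). In Kasumi-1 it was lost without ABBV-075 replicate 2 (-0.72, adjusted p = 0.233) or DMSO replicate 2 (-1.71, adjusted p = 0.0546), and was -2.83 without ABBV-075 replicate 1 (adjusted p = 1.63e-04). The IFITM genes are close copies: of the 50-base stretches of IFITM1 transcripts, 29.4% also occur in IFITM2 and 9.18% in IFITM3, so reads can be shared among them and their separate values are uncertain to that extent.

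TRIM22, a ubiquitin ligase that restricts several viruses, fell further than any other member in SKM-1. It had 0.64 and 0.74 FPKM under ABBV-075 and 10.5 and 8.82 FPKM under ABBV-744, against 10.9 and 11.7 FPKM with DMSO. In MV-4-11 it had 9.72 and 10.2 FPKM under ABBV-075 and 54.4 and 49.7 FPKM under ABBV-744, against 59.3 and 53.7 FPKM with DMSO. So the ABBV-075 libraries stood far below the rest, while ABBV-744 and DMSO overlapped in MV-4-11 and lay close together in SKM-1. The log2 changes of TRIM22 with ABBV-075 were -2.86, -2.39 and -0.93 in SKM-1, MV-4-11 and Kasumi-1 (SE 0.11 each; adjusted p = 7.48e-12, 8.73e-11 and 2.58e-06); with ABBV-744 they were -0.21, -0.12 and -0.40, of which the Kasumi-1 value passed (adjusted p = 0.0140), though not without ABBV-744 replicate 2 (-0.32, adjusted p = 0.122). In NCI-H1299 TRIM22 stayed at or below 0.06 FPKM.

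RSAD2 (viperin), which makes a chain-terminating nucleotide, rose in MV-4-11 by 0.66 ± 0.10 with ABBV-075 and 0.65 ± 0.10 with ABBV-744 (adjusted p = 5.52e-05 and 3.56e-04). In Kasumi-1 RSAD2 changed by -0.26 with ABBV-075 (adjusted p = 0.0367), a call lost without replicate 2 (-0.08, adjusted p = 0.526), and by -0.43 without replicate 1 (adjusted p = 9.33e-04). It overlaps CMPK2, a nucleotide kinase gene. BST2 changed by -0.84 ± 0.27 in Kasumi-1 with ABBV-075 (adjusted p = 0.0131), by -0.25 without replicate 2 (adjusted p = 0.319) and by -1.44 without replicate 1 (adjusted p = 2.26e-05). MX1 in SKM-1 had 1.48 and 1.63 FPKM under ABBV-075 and 1.62 and 1.56 FPKM under ABBV-744, against 3.61 and 2.23 FPKM with DMSO, and MX1 and MX2 passed in no line.

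**Figure D4:**
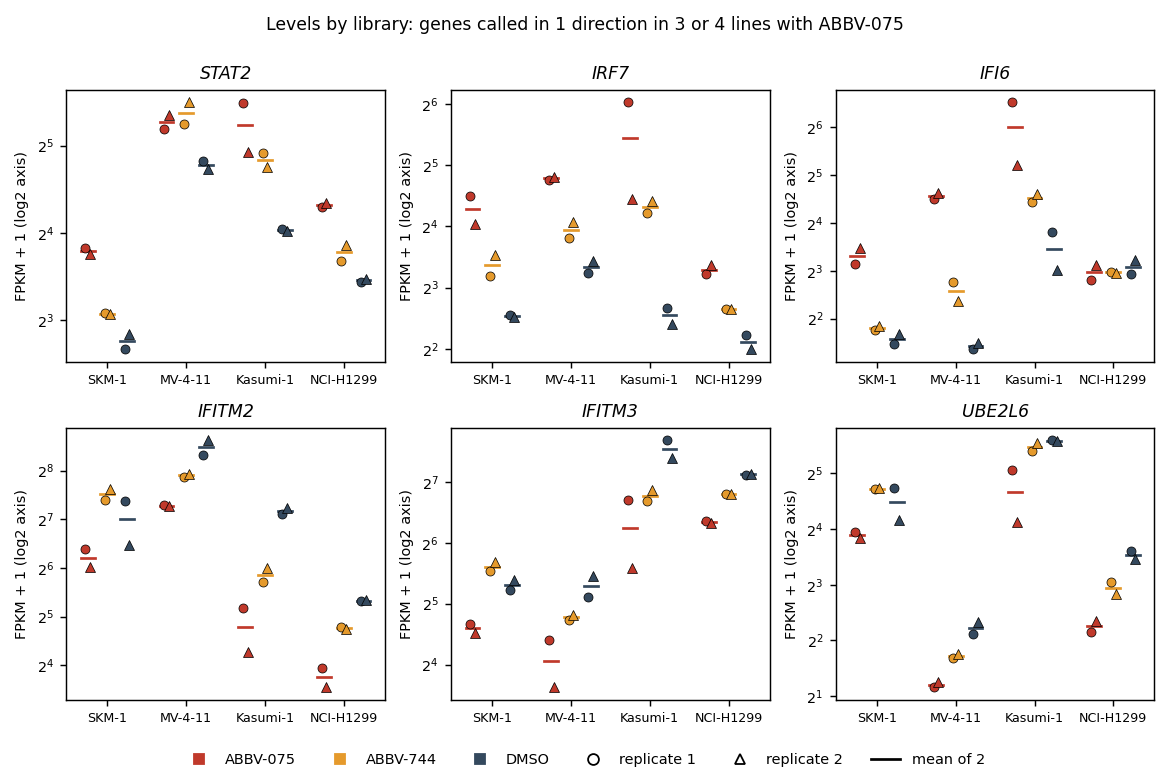
FPKM + 1 on a log2 axis for each library of 6 ISGs in the 4 lines, with ABBV-075, ABBV-744 and DMSO from left to right, symbols for the replicate and lines for the mean of 2. STAT2 and IRF7 with ABBV-075 lie above DMSO in every line, IFI6 in the 3 AML lines (in NCI-H1299 at 6.04 and 7.64 FPKM against 6.65 and 8.32 FPKM), and IFITM2, IFITM3 and UBE2L6 lie below it.

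ISG15 itself did not pass the test in any line. It had 29.9 and 29.2 FPKM in NCI-H1299 with ABBV-075 and 36.2 and 33 FPKM with ABBV-744, against 33.4 and 26.7 FPKM with DMSO. In SKM-1 it had 4.50 and 3.61 FPKM under ABBV-075 and 8.26 and 10.4 FPKM under ABBV-744, against 11.1 and 6.01 FPKM with DMSO (-0.87 ± 0.50 with ABBV-075, adjusted p = 0.146). With an SE of 0.50 log2 units, only large changes of this gene could have passed.

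The enzymes of ISG15 conjugation parted ways. UBE2L6, the conjugating enzyme, fell with ABBV-075 in all 4 lines, by 0.55 in SKM-1, 1.01 in MV-4-11, 0.99 in Kasumi-1 and 1.29 in NCI-H1299 (log2, SE 0.23 each; adjusted p = 0.0443, 0.00189, 0.00152 and 2.34e-04). In NCI-H1299 it had 3.45 and 4.08 FPKM under ABBV-075 and 7.23 and 6.15 FPKM under ABBV-744, against 11.2 and 10.0 FPKM with DMSO. The SKM-1 call is the weakest: it was lost in 21 of the 24 fits with 1 library left out, and was -0.27 without SKM-1 DMSO replicate 1 (adjusted p = 0.354). In Kasumi-1 UBE2L6 changed by -1.46 without ABBV-075 replicate 1 and by -0.52 without replicate 2 (adjusted p = 1.04e-05 and 0.0314).

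HERC5, the main ISG15 ligase in human cells, rose with ABBV-075 in MV-4-11 (0.40 ± 0.15), Kasumi-1 (0.75 ± 0.15) and NCI-H1299 (0.96 ± 0.15), at adjusted p = 0.0380, 4.25e-04 and 6.68e-05; the MV-4-11 call was lost without ABBV-075 replicate 1 (0.26, adjusted p = 0.285) or either DMSO library. NCI-H1299 had 17.0 and 17.8 FPKM of HERC5 with ABBV-075 and 8.86 and 10.5 FPKM with ABBV-744, against 8.74 and 8.18 FPKM with DMSO. USP18, the protease that removes ISG15 and dampens receptor signalling, fell with ABBV-075 in SKM-1 (-1.66 ± 0.23, adjusted p = 1.64e-05) and NCI-H1299 (-1.27 ± 0.23, adjusted p = 3.55e-04). In SKM-1 USP18 had 0.87 and 0.49 FPKM under ABBV-075 and 1.54 and 2.09 FPKM under ABBV-744, against 6.07 and 2.95 FPKM with DMSO, so the groups did not overlap although the DMSO pair spread widely. HERC6, a relative of HERC5, rose in SKM-1 with ABBV-075 (1.25 ± 0.22, adjusted p = 1.59e-04).

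PARP9 and its partner DTX3L, a ubiquitin ligase complex that strengthens interferon signalling, share overlapping loci and cannot be separated where reads fall in both. PARP9 fell with ABBV-075 in SKM-1 (-0.96 ± 0.23, adjusted p = 0.00175) and NCI-H1299 (-0.70 ± 0.23, adjusted p = 0.0188) and was higher in Kasumi-1 (0.96 ± 0.23, adjusted p = 0.00194). In Kasumi-1 PARP9 had 12.2 and 5.01 FPKM under ABBV-075 and 5.10 and 4.88 FPKM under ABBV-744, against 3.20 and 3.99 FPKM with DMSO, and the change was 0.39 without replicate 1 (adjusted p = 0.0110) and 1.53 without replicate 2 (adjusted p = 1.36e-07). DTX3L fell in SKM-1, MV-4-11 and NCI-H1299 by 0.48, 0.71 and 0.54 (adjusted p = 0.0427, 0.00804 and 0.0325), calls that were lost to -0.36 in SKM-1 (adjusted p = 0.224) and -0.60 in MV-4-11 (adjusted p = 0.0739) without ABBV-075 replicate 1, and to -0.43 in NCI-H1299 (adjusted p = 0.186) without DMSO replicate 2. The NCI-H1299 call of PARP9 was -0.62 without ABBV-075 replicate 1 (adjusted p = 0.108). SP110, a nuclear body protein, rose in SKM-1 with both compounds, by 1.08 ± 0.21 with ABBV-075 (adjusted p = 3.56e-04) and 0.67 ± 0.21 with ABBV-744 (adjusted p = 0.0265; 0.60 without ABBV-744 replicate 1, adjusted p = 0.143). In Kasumi-1 SP110 changed by 0.77 with ABBV-075 (adjusted p = 0.00540), a call lost without replicate 1 (0.33, adjusted p = 0.109) and larger without replicate 2 (1.2, adjusted p = 5.10e-05).

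SAMD9 and SAMD9L, neighbouring genes whose products restrain translation and growth, rose most in Kasumi-1. SAMD9L had 9.21 and 6.47 FPKM under ABBV-075 and 3.94 and 3.20 FPKM under ABBV-744, against 1.75 and 1.77 FPKM with DMSO. None of the libraries overlapped between these groups, and the change was 1.66 ± 0.12 with ABBV-075 (adjusted p = 1.13e-08; 1.44 without replicate 1) and 0.73 ± 0.12 with ABBV-744 (adjusted p = 3.71e-04). SAMD9 rose in Kasumi-1 by 1.03 ± 0.16 with ABBV-075 (adjusted p = 4.96e-05), and fell in SKM-1, where it had 1.0 and 1.25 FPKM under ABBV-075 and 3.0 and 2.58 FPKM under ABBV-744, against 2.57 and 3.96 FPKM with DMSO (-0.99 ± 0.16 with ABBV-075, adjusted p = 6.19e-05).

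IFI6, a membrane protein that blocks flavivirus replication and apoptosis, had the largest rise of any member. In MV-4-11 it had 21.6 and 23.8 FPKM under ABBV-075 and 5.75 and 4.16 FPKM under ABBV-744, against 1.56 and 1.79 FPKM with DMSO. Kasumi-1 had 90.4 and 35.9 FPKM under ABBV-075 and 20.7 and 23.4 FPKM under ABBV-744, against 13 and 7.08 FPKM with DMSO. In SKM-1 IFI6 had 7.84 and 10.1 FPKM under ABBV-075 and 2.42 and 2.59 FPKM under ABBV-744, against 1.76 and 2.20 FPKM with DMSO. In each AML line the order was thus ABBV-075, ABBV-744 and DMSO with no overlap, while in NCI-H1299 the IFI6 libraries of all treatments lay between 6.04 and 8.32 FPKM and overlapped. The log2 changes of IFI6 with ABBV-075 were 1.74, 3.15 and 2.45 in SKM-1, MV-4-11 and Kasumi-1 (SE 0.31 each; adjusted p = 1.90e-04, 8.73e-07 and 7.62e-06) and -0.11 in NCI-H1299 (adjusted p = 0.790). With ABBV-744 they were 0.24, 1.14 and 1.12 in the AML lines, of which the MV-4-11 and Kasumi-1 values passed (adjusted p = 0.0272 and 0.0173), both lost when libraries of their own line were left out, for example at 0.95 in MV-4-11 without ABBV-744 replicate 1 (adjusted p = 0.178) and 0.72 in Kasumi-1 without DMSO replicate 2 (adjusted p = 0.204).

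XAF1 showed the deepest fall. In MV-4-11 it had 1.54 and 1.63 FPKM under ABBV-075 and 13.7 and 13.2 FPKM under ABBV-744, against 37.4 and 32.3 FPKM with DMSO, and no libraries of these groups overlapped. The log2 change was -3.79 ± 0.20 with ABBV-075 (adjusted p = 4.84e-10) and -1.31 ± 0.20 with ABBV-744 (adjusted p = 3.55e-04). In Kasumi-1 XAF1 changed by -0.60 with ABBV-075 (adjusted p = 0.0160), by -1.02 without replicate 1 (adjusted p = 6.83e-05) and by -0.18 without replicate 2 (adjusted p = 0.369). IFI44 was tested in Kasumi-1 only, where it had 15.7 and 6.84 FPKM with ABBV-075, against 5.38 and 5.69 FPKM with DMSO (0.81, adjusted p = 0.00486; 0.26 without replicate 1, adjusted p = 0.0559; 1.36 without replicate 2, adjusted p = 2.43e-07). IFI35 passed in no line, with a change of 0.85 ± 0.37 in SKM-1 (adjusted p = 0.0562).

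**Figure D5:**
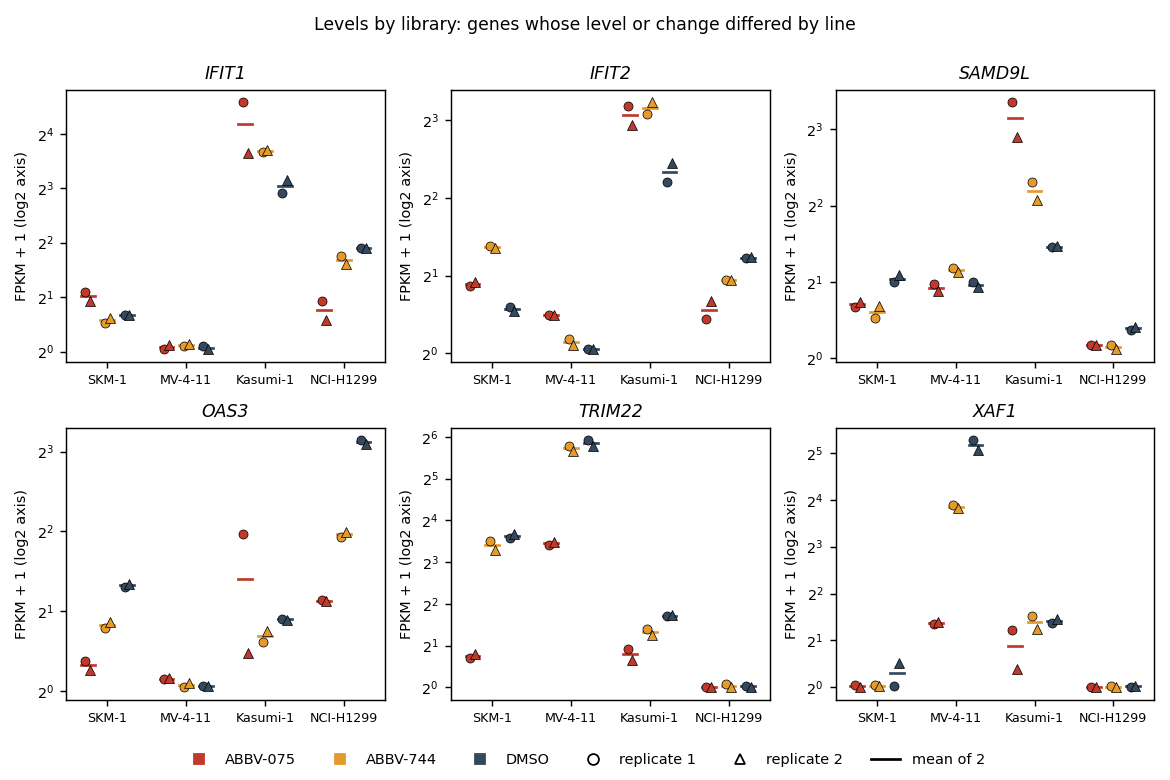
FPKM + 1 on a log2 axis for each library of 6 ISGs whose level or change depended on the line, with ABBV-075, ABBV-744 and DMSO from left to right, symbols for the replicate and lines for the mean of 2. IFIT1 with ABBV-075 lies above DMSO in Kasumi-1 and below it in NCI-H1299, OAS3 falls stepwise in NCI-H1299, and XAF1 falls from a level that only MV-4-11 reached.

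Whether a member's response differed among the lines was tested directly with a moderated F test over the members that passed in all 4 lines. With ABBV-075, 10 of 22 were called different among lines, where 50.4% of all genes were, and with ABBV-744 2 of 22 (IFITM2 and SAMD9), where 6.50% of all genes were. The smallest adjusted p values for ABBV-075 belonged to IRF1 (8.09e-06), SAMD9 (3.63e-05) and IFI6 (1.99e-04). STAT2, UBE2L6 and IFITM3 were not called (adjusted p = 0.0592, 0.240 and 0.306), which does not show that their changes were equal.

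The contrast between Kasumi-1 and NCI-H1299, chosen after their opposite IFIT values had been seen, set the ABBV-075 change in Kasumi-1 against that in NCI-H1299. Of 26 members tested, 9 had a higher change in Kasumi-1 and 1 (IRF1) a lower one, beside 11.8% and 12.7% of all genes. IFIT1 differed by 2.23 ± 0.29 log2 units (adjusted p = 5.32e-05), IFIT2 by 1.40 ± 0.14 (adjusted p = 7.01e-06), and IFI6 by 2.57 ± 0.44 (adjusted p = 6.70e-04). IFIT2 and DDX60, both among the 9, entered in NCI-H1299 through their DMSO libraries alone. Without replicate 1 of Kasumi-1 with ABBV-075, 9 were called higher and 3 lower.

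The rest of the pathway was read through lists drawn up with earlier results known. None of the 10 interferon ligand genes in the list (type I, II and III) reached 1 FPKM in any library, so none could be tested. Their highest value was 0.49 FPKM of IFNE in NCI-H1299 with ABBV-075. Interferon genes outside the list were not examined.

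Of the receptor and JAK-STAT genes tested with ABBV-075, 7 were called higher and 2 lower of 14 in SKM-1, 6 and 2 of 15 in MV-4-11, 9 and 2 of 13 in Kasumi-1, and 9 and 0 of 13 in NCI-H1299, with medians of 0.39, 0.19, 0.56 and 0.53, beside 0.05, -0.01, -0.09 and -0.06 over all genes. The shares called in either direction were 64.3%, 53.3%, 84.6% and 69.2%, against 61.3%, 42.4%, 57.3% and 47.1% of all genes, so the SKM-1 share is near the background. JAK1, the kinase shared by the interferon receptors, had 94.7 and 107 FPKM in SKM-1 with ABBV-075 and 51.5 and 49.2 FPKM with ABBV-744, against 35.6 and 25.9 FPKM with DMSO. In NCI-H1299 JAK1 had 105 and 111 FPKM under ABBV-075 and 45.7 and 46.5 FPKM under ABBV-744, against 37.1 and 37.7 FPKM with DMSO. No JAK1 groups of these lines overlapped. JAK1 changed with ABBV-075 by 1.69, 0.97, 1.66 and 1.5 in SKM-1, MV-4-11, Kasumi-1 and NCI-H1299 (log2, SE 0.13 each; adjusted p = 2.65e-08, 2.32e-05, 4.83e-08 and 2.26e-07).

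The receptor chain IFNAR2 rose in all 4 lines with ABBV-075, by 0.85, 0.47, 0.68 and 0.53 in SKM-1, MV-4-11, Kasumi-1 and NCI-H1299 (adjusted p = 2.09e-04, 0.0243, 0.00154 and 0.0110). STAT3, which serves other cytokines too, rose by 1.29, 1.33, 0.82 and 0.63 (adjusted p = 1.57e-06, 2.22e-06, 1.80e-04 and 0.00208). PTPN6 (SHP-1), a phosphatase that dampens JAK signalling in blood cells, fell in SKM-1 (-2.02 ± 0.17, adjusted p = 7.80e-08) and Kasumi-1 (-2.40 ± 0.17, adjusted p = 1.59e-08). In MV-4-11 PTPN6 had 184 and 178 FPKM under ABBV-075 and 198 and 219 FPKM under ABBV-744, against 180 and 229 FPKM with DMSO, with overlapping groups. SOCS3, a feedback inhibitor of cytokine receptors, fell in MV-4-11 (-1.16 ± 0.11, adjusted p = 4.63e-07) and rose in NCI-H1299 (1.0 ± 0.11, adjusted p = 2.19e-06).

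Of the genes of nucleic acid sensing, those called with ABBV-075 were 6 lower and 3 higher of 13 in SKM-1, 3 and 2 of 12 in MV-4-11, 9 and 1 of 12 in Kasumi-1, and 3 and 1 of 7 in NCI-H1299, with medians of -0.29, -0.02, -0.97 and -0.64. The shares called were 69.2%, 41.7%, 83.3% and 57.1%, against 61.3%, 42.4%, 57.3% and 47.1% of all genes, so in MV-4-11 the share is at the background. IRF8, a myeloid factor that also drives interferon genes, had 2.76 and 1.99 FPKM in SKM-1 with ABBV-075 and 9.88 and 10.6 FPKM with ABBV-744, against 13.6 and 22.6 FPKM with DMSO. In MV-4-11 IRF8 had 91.2 and 91.3 FPKM under ABBV-075 and 147 and 142 FPKM under ABBV-744, against 216 and 214 FPKM with DMSO. The IRF8 groups did not overlap in either line, and its log2 changes with ABBV-075 were -2.47 ± 0.17 and -1.23 ± 0.17 (adjusted p = 5.11e-09 and 2.36e-05). MB21D1 (cGAS), the sensor of cytosolic DNA, fell in all 4 lines, by 1.03, 0.65, 0.49 and 1.31 in SKM-1, MV-4-11, Kasumi-1 and NCI-H1299 (adjusted p = 2.52e-05, 0.00271, 0.0113 and 3.99e-06). Its partner TMEM173 (STING) fell in SKM-1, Kasumi-1 and NCI-H1299, by 1.17, 1.28 and 1.0 (adjusted p = 3.71e-04, 1.88e-04 and 0.00203), and changed by -0.02 in MV-4-11 without passing.

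Of 38 further ISGs outside the 44 members, those called with ABBV-075 were 6 higher and 9 lower of 28 in SKM-1, 7 and 9 of 31 in MV-4-11, 7 and 11 of 29 in Kasumi-1, and 3 and 13 of 28 in NCI-H1299, with medians of -0.15, 0.09, -0.24 and -0.27. The shares called were 53.6%, 51.6%, 62.1% and 57.1%, against the same 61.3%, 42.4%, 57.3% and 47.1% of all genes. TRIM14, an adaptor of RIG-I signalling, fell in all 4 lines, by 2.41, 1.29, 1.0 and 1.29 in SKM-1, MV-4-11, Kasumi-1 and NCI-H1299 (adjusted p = 3.39e-10, 8.29e-07, 7.65e-06 and 8.08e-07). IFI30 (GILT), a lysosomal thiol reductase of antigen processing, rose in all 4, by 2.81, 0.81, 1.30 and 0.82 (adjusted p = 1.22e-07, 0.0160, 3.87e-04 and 0.0137). It had 173 and 138 FPKM in SKM-1 with ABBV-075 and 37.4 and 38.7 FPKM with ABBV-744, against 28.1 and 16.0 FPKM with DMSO. RTP4, a chaperone that restrains type I interferon responses, fell in MV-4-11 with ABBV-075 by 2.13 on the log2 scale (SE 0.12, adjusted p = 8.43e-10).

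How the members varied together was described over the 24 libraries after each line's mean had been taken out, for the 22 members tested in all 4 lines. The median Pearson r over the 231 pairs was 0.12, 47 pairs lay above 0.5 and 21 below -0.5. STAT2 and IRF7 had r = 0.92, IFITM2 and UBE2L6 0.91, IFITM2 and IFITM3 0.90, and STAT2 and IFITM2 -0.80. The libraries share treatments and lines, so these values describe the same changes as above and carry no test.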

How the data were processed

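RNA from 24 libraries (12 groups of 2, 4 lines by 3 treatments) was extracted with Qiazol and RNeasy columns, selected for poly-A and sequenced on a HiSeq3000, per the labels' protocols. The values are FPKM per gene as deposited by the authors in 1 table of 30373 rows. DESeq2 is named in the submitters' processing notes without a version or role; for the aligner, the quantifier, the build, the annotation and the strand setting the sources give nothing. FPKM hold no counts, so depth is unknown and no counting interval is given.

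Values were analysed as log2(FPKM + 1), the pseudocount being 1 FPKM. Within each line, a gene was tested when 2 or more libraries reached 1 FPKM; tests of the response across lines took genes that passed in each line concerned, and the test of DMSO levels genes with 2 or more DMSO libraries at 1 FPKM. Linear models over all 24 libraries (12 residual degrees of freedom) with limma 3.58.1 in R 4.3.3 used the 12 groups as terms, with moderated variances, a mean-variance trend and robust fitting, and Benjamini-Hochberg adjustment over all genes tested in each comparison (threshold 0.05). Steps were tested on simulated data. Replicate numbers follow accession order and pair nothing. An exact permutation test of 2 libraries against 2 cannot go below p = 0.333, so none is reported.

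The 44 members and all lists were chosen with earlier results of these data known. Genes outside the members were named by a fixed rule: up to 4 called genes per list, line and compound with the largest change, with up to 3 not called. Values of 1 gene covered by that rule are not reported here. The contrast of Kasumi-1 with NCI-H1299 was chosen after seeing the values. Alternatives were a pseudocount of 0.1 FPKM, no filter, a filter of 5 FPKM, median ratio rescaling, and a fit with neither trend nor robust step. Each line was also fitted alone. Each library was also left out in turn, where the lone library is assumed to vary like the other groups. Promoter windows are RefSeq's (GRCh38.p14); motif matches used Python 3.11.15.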

Additional observations from a re-analysis of the deposited data

Results flagged for a closer look

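The ABBV-075 response differed among the 4 lines, by an F test over lines, for 10 members: IRF1 (adjusted p = 8.09e-06), SAMD9 (3.63e-05), IFI6 (1.99e-04), IFIH1 (6.56e-04), PARP9 (8.52e-04), HERC6 (0.00229), HERC5 (0.00370), IRF2 (0.00942), IFITM2 (0.0116) and IRF7 (0.04996). For ABBV-744 the same test picked IFITM2 (adjusted p = 0.0405) and SAMD9 (0.0187).

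In the contrast of Kasumi-1 with NCI-H1299, the ABBV-075 change was higher in Kasumi-1 for IFIT2 (adjusted p = 7.01e-06), IFIT1 (5.32e-05), SAMD9 (4.83e-04), IFI6 (6.70e-04), PARP9 (0.00154), IFIH1 (0.00157), DDX60 (0.0213), HERC6 (0.0252) and IRF7 (0.0253), and lower for IRF1 (9.81e-05). In Kasumi-1 with ABBV-075, 35 of the 37 tested members were higher in replicate 1 than in replicate 2, and the contrast called 9 members higher and 3 lower without replicate 1. IFIT2 and DDX60 passed the filter in NCI-H1299 through their DMSO libraries alone. The calls of HERC6, IRF7 and DDX60 in the contrast were lost when certain single Kasumi-1 DMSO or NCI-H1299 libraries were left out.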

How the results depend on the processing

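Of 106 calls of single members, 44 were lost with at least 1 library left out. The rest held in every such fit where they could be tested. Members admitted by 1 group alone could not be tested when a library of that group was left out. A pseudocount of 0.1 FPKM lost 15 of the 106 calls, no filter 6 and median ratio rescaling 4. Dropping both the trend and the robust fitting lost 1, and fitting each line alone lost 28. With a filter of 5 FPKM, 69 of 69 remained. OAS1 in Kasumi-1 with ABBV-075 reversed to -0.0133 without ABBV-075 replicate 1 and was 1.36 without replicate 2.

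With a pseudocount of 0.1 FPKM, the members called lower with ABBV-744 numbered 2 in SKM-1, 0 in MV-4-11, 1 in Kasumi-1 and 1 in NCI-H1299. With no filter, the contrast of Kasumi-1 with NCI-H1299 had 14 higher and 2 lower, and the response differed among lines for 21 members with ABBV-075 and 9 with ABBV-744. A filter of 5 FPKM tests fewer genes. It left 6 members lower in SKM-1 with ABBV-075 and 1 with ABBV-744, 3 higher in MV-4-11 with ABBV-075, 1 lower in Kasumi-1 with ABBV-744, 7 lower in NCI-H1299 with ABBV-075, 2 higher in the contrast, 5 and 1 differing among lines with ABBV-075 and ABBV-744, and 27 in DMSO level. Fitting each line alone gave 1 higher and 0 lower in SKM-1 with ABBV-744, 13 lower in MV-4-11 with ABBV-075 and 4 with ABBV-744, 5 lower in Kasumi-1 with ABBV-075, 1 higher and 1 lower there with ABBV-744, and 2 higher and 16 lower in NCI-H1299 with ABBV-744. The causes of the other changes were not tested.

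With 1 library left out in turn, ABBV-075 gave 7 to 11 higher and 7 to 16 lower in SKM-1, 4 to 6 and 5 to 13 in MV-4-11, 11 to 23 and 5 to 15 in Kasumi-1, and 4 to 5 and 6 to 16 in NCI-H1299. ABBV-744 gave 1 to 8 higher and 1 to 7 lower in SKM-1, 1 to 7 and 1 to 3 in MV-4-11, 4 to 9 and 1 to 7 in Kasumi-1, and 0 higher and 0 to 8 lower in NCI-H1299. The contrast ranged over 5 to 18 higher and 1 to 3 lower, the response test over 8 to 21 members for ABBV-075 and 0 to 7 for ABBV-744, and DMSO levels over 39 to 42. No paired analysis was possible because the replicate numbers follow accession order.

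The main limits are 2 libraries per group from cultures not stated to be separate, unknown depth, the pair of Kasumi-1 libraries with ABBV-075, and the spread of the SKM-1 DMSO pair. Genes near 1 FPKM can show only compressed changes.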
